A study of Mus musculus with 6 samples.

Results

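Pericyte markers are transcripts used to recognise the contractile and supporting cells that wrap small blood vessels. The 7 genes examined here were taken as a set of known markers: Rgs5, Des, Cspg4, Mcam, Itga7, Kcnj8 and Abcc9. The choice used no threshold on their values, but earlier results of these data were known when it was made. Each marker was found as the annotated gene of exactly 1 row of the deposited table, so all 7 were measured, out of 19938 genes that had a row of their own. They were followed on 6 single-colour Affymetrix arrays. One array carried RNA of MEF, fibroblasts of C57BL/6JJcl mouse embryos at E11.5-13.5 that had been grown in culture. Another carried RNA of lymph node (LN) stroma, sorted straight from enzymatically digested nodes of adult C57BL/6JJcl mice as cells without CD45 (Ptprc) and CD31 (Pecam1) and with podoplanin (Pdpn) and VCAM-1 (Vcam1). The other 4 arrays carried RNA of BLS4 and BLS12, established stromal lines from adult BALB/cA lymph node, each grown for 2 days without or with 1 µg/ml of an agonistic goat polyclonal antibody to LTβR, the lymphotoxin β receptor. No array held a control antibody, all cultures grew in DMEM with serum, and strain, age, tissue and culture differed together between MEF, LN stroma and the lines, so their parts cannot be told apart.

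Pericytes sit inside the basement membrane of capillaries and venules, exchange signals with endothelium and regulate vessel tone and stability. Several of their markers belong to that task. Rgs5 encodes a GTPase-activating protein that shortens G-protein signalling, Kcnj8 encodes the pore subunit Kir6.1 and Abcc9 the regulatory subunit SUR2 of a potassium channel that ATP closes, and Des encodes the intermediate filament desmin, which is also a muscle protein and is found in reticular cells of lymph node. Itga7 encodes the α7 chain of a laminin-binding integrin, Cspg4 the membrane proteoglycan NG2, and Mcam the adhesion molecule CD146, which endothelial cells carry too. In mouse lymph node, pericytes are usually described as podoplanin-negative and integrin α7-positive, so a podoplanin-positive gate is not the fraction where they are expected. None of the markers belongs to pericytes alone, since fibroblasts, muscle, glial precursors or endothelium use one or more of them.

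Levels are given as log2 of the deposited intensity, and each array's median over rows with 1 gene, between 6.27 and 6.39, serves as the landmark because the table has no detection call. A gene's level can be compared between arrays but not with the level of another gene, which has other probes. The sorted LN stroma was checked against the genes of its gate, and Pdpn was at 10.20 and Vcam1 at 11.90, both far above the LN array's median of 6.39. Between arrays, however, Pdpn was at its lowest in LN stroma, and lay between 10.42 and 11.68 elsewhere. Both genes of the depleted cells were at their highest of the 6 arrays in LN stroma. Ptprc was at 5.70 there, below the LN array's median, and between 4.06 and 5.26 elsewhere. Pecam1 was at 6.44 there, just above that median, and between 4.73 and 5.08 elsewhere. MEF and LN stroma had 1 array each, without a replicate, and the labels do not say whether the cultures behind a line's arrays were started independently. No test was therefore run between MEF, LN stroma and the lines. For the line arrays alone, the moderated fit had a prior SD of 0.153 log2 units for a single array. It holds no spread between MEF cultures or between sorts of LN stroma, so it does not gauge differences from those arrays.

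The 7 markers did not share 1 pattern across these arrays. Rgs5, Des, Kcnj8 and Abcc9 had their highest level in LN stroma, by at least 4-fold over every other array. Cspg4 and Mcam had theirs in MEF, again by at least 4-fold over every other array, and Itga7 had its highest level in BLS12. LN stroma stood at least 4-fold above every other array in 324 of 19938 genes (1.63%), and MEF in 89 (0.446%). These are bulk samples, in which fewer cells of a type and less RNA per cell cannot be told apart.

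**Figure D1:**
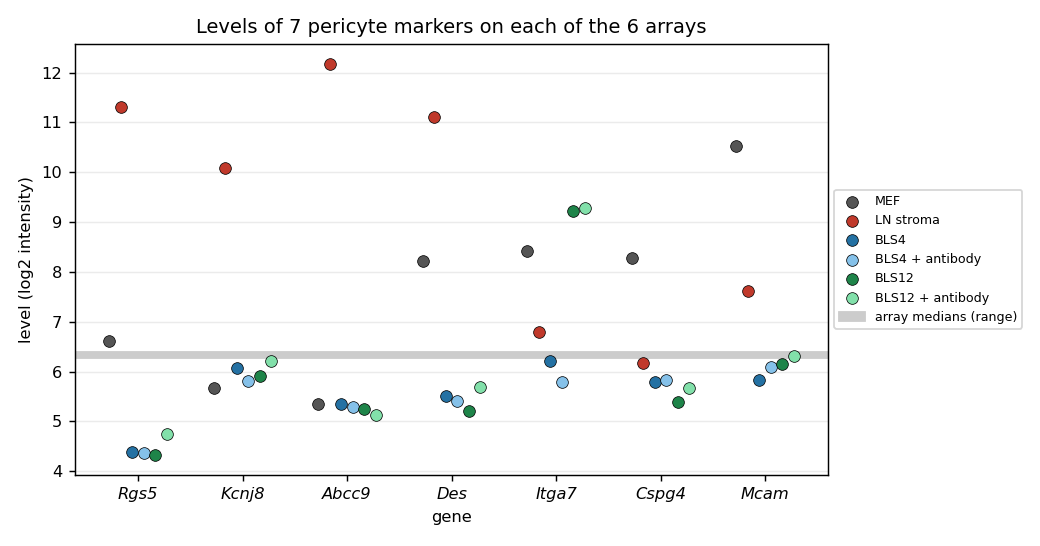
Level of each of the 7 markers (log2 intensity, vertical axis) on each of the 6 arrays (1 point per array, coloured by array), with a grey band at the range of the array medians, 6.27 to 6.39. LN stroma stands alone at the top for Rgs5, Kcnj8, Abcc9 and Des, MEF for Cspg4 and Mcam, and both BLS12 arrays for Itga7.

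The sequences just upstream of the 4 genes that were highest in LN stroma are shown here so that the shared pattern can be read beside its promoters. They come from RefSeq on GRCm38.p6, each from 250 bases before to 50 bases after an annotated start, and 6 of the 7 markers had such an entry (not Itga7). Capitals mark TGGGAA, the core letters bound by the Notch effector RBPJ, in Kcnj8 and Abcc9, and the E-box CANNTG, the letters bound by basic helix-loop-helix factors, in Rgs5 and Des.
Kcnj8 (chr6:142571565-142571864, minus strand): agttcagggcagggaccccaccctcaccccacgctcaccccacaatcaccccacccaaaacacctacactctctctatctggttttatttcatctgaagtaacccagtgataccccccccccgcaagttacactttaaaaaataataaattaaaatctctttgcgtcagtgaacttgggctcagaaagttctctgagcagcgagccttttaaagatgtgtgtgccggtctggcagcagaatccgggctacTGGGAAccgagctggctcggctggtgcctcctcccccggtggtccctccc
Abcc9 (chr6:142702225-142702524, minus strand): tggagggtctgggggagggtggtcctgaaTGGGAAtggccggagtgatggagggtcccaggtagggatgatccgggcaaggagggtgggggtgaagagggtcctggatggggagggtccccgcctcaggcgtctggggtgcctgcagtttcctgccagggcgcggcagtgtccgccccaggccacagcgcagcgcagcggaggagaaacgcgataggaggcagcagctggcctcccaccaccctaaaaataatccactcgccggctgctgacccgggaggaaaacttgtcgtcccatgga
Rgs5 (chr1:169655251-169655550, plus strand): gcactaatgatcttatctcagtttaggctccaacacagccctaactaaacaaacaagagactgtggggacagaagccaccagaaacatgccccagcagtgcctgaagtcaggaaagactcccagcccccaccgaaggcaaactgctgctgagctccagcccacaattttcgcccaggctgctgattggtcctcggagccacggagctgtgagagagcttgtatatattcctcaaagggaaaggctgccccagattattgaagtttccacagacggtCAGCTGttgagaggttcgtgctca
Des (chr1:75360042-75360341, plus strand): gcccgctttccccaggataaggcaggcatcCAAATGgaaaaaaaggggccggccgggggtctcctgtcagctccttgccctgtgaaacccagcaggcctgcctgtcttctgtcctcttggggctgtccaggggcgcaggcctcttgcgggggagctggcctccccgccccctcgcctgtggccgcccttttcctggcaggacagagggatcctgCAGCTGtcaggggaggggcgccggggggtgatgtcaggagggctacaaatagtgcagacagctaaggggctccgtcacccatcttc
TGGGAA on either strand was found in 2 of the 6 windows, at bases 251 to 256 of the Kcnj8 window and at bases 30 to 35 of the Abcc9 window, and in 25.6% of all 32851 promoter windows of this length. CANNTG, which reads the same on both strands as written, was found in 5 of the 6 windows and in 72.3% of all windows. Its matched letters were CAGCTG in Rgs5 and Abcc9, CAAATG and CAGCTG in Des, CATCTG in Kcnj8, and CACCTG and CACTTG in Mcam. The matches in Abcc9 and Kcnj8 are not capitalised. The CArG box, the site of serum response factor in many muscle genes, was found in 0 of the 6 windows and in 1.63% of all. These are matches of letters only.

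The channel subunits gave the plainest pattern. Abcc9 was at 5.35 in MEF, 12.18 in LN stroma, 5.34 in BLS4, 5.29 in antibody-treated BLS4, 5.25 in BLS12 and 5.13 in antibody-treated BLS12. LN stroma was thus the single high array, and the other 5 lay within 0.22 log2 units of each other, each below its array's median. On the linear scale the intensity was 4647 in LN stroma against 40.9 in MEF, a ratio of 114, and the LN level was 115-fold that of BLS4 and 123-fold that of BLS12. Because the lower levels lie below the median, these ratios are approximate. By size of the LN minus MEF difference Abcc9 was number 16 of 10836 genes, and by the difference of LN stroma from the mean of the unstimulated lines it was number 15 of 11149.

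Kcnj8, whose product forms the pore that SUR2 regulates, was at 5.67 in MEF, 10.08 in LN stroma, 6.08 in BLS4, 5.82 in antibody-treated BLS4, 5.90 in BLS12 and 6.20 in antibody-treated BLS12. The 5 arrays other than LN stroma spanned 0.53 log2 units and were all below their medians. LN stroma exceeded MEF by 4.41 log2 units (21.2-fold), BLS4 16.0-fold and BLS12 18.1-fold. Kcnj8 and Abcc9 are neighbours on mouse chromosome 6 with 0 protein-coding genes between them, and each had a row of its own. The alternative subunits of this channel family, known from pancreatic β cells, did not share the pattern. Kcnj11 (Kir6.2) was at 6.21 in LN stroma and between 6.11 and 6.34 elsewhere. Abcc8 (SUR1) was at 5.74 in LN stroma and between 5.32 and 5.63 elsewhere. Abcc8 was below the median on all 6 arrays and so was not kept, and Kcnj11 lay near the medians and reached them on 2 arrays. Neither reached a 4-fold difference in any of these comparisons.

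Rgs5 was at 6.62 in MEF, 11.30 in LN stroma, 4.37 in BLS4, 4.37 in antibody-treated BLS4, 4.32 in BLS12 and 4.75 in antibody-treated BLS12. Here the arrays formed 3 steps, with LN stroma on top, MEF in the middle just above its array median of 6.35, and the 4 line arrays together at the bottom within 0.43 log2 units. LN stroma exceeded MEF by 4.68 log2 units (25.7-fold) and the lines by 6.93 (BLS4) and 6.98 (BLS12). The lines in turn differed from MEF by -2.25 (BLS4) and -2.30 (BLS12) log2 units. Rgs5 was number 13 of 11149 genes by the difference of LN stroma from the mean of the unstimulated lines.

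Desmin followed the same order with a higher middle step. Des was at 8.21 in MEF, 11.12 in LN stroma, 5.51 in BLS4, 5.41 in antibody-treated BLS4, 5.21 in BLS12 and 5.69 in antibody-treated BLS12. The 4 line arrays spanned 0.49 log2 units, below the gap of 2.52 that separated MEF from the nearest of them and the gap of 2.91 between LN stroma and MEF. LN stroma exceeded MEF 7.50-fold, BLS4 48.8-fold and BLS12 60.2-fold. In Rgs5, Des, Kcnj8 and Abcc9 no order is given among the 4 line arrays, because neighbouring levels there were 0.37 log2 units apart or closer and each array is single.

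Cspg4 and Mcam ran the other way between LN stroma and MEF. Cspg4 was at 8.27 in MEF, 6.17 in LN stroma, 5.80 in BLS4, 5.82 in antibody-treated BLS4, 5.39 in BLS12 and 5.67 in antibody-treated BLS12. MEF was the single array above its median. The ratio of MEF to LN stroma was 4.31, close to the 4-fold limit, and MEF exceeded BLS4 5.57-fold and BLS12 7.39-fold. LN stroma lay 0.34 log2 units above the nearest line array, less than the 0.44 that the 4 line arrays spanned among themselves.

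Mcam was at 10.53 in MEF, 7.62 in LN stroma, 5.84 in BLS4, 6.09 in antibody-treated BLS4, 6.15 in BLS12 and 6.30 in antibody-treated BLS12. MEF, LN stroma and the lines formed 3 steps, and the 4 line arrays, all below their medians, spanned 0.47 log2 units. MEF exceeded LN stroma 7.48-fold, BLS4 25.8-fold and BLS12 20.8-fold, and by the difference of the mean of the unstimulated lines from MEF Mcam was number 15 of 10932 genes. LN stroma exceeded BLS4 by 1.79 and BLS12 by 1.48 log2 units, short of 4-fold.

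Itga7 alone separated the lines. It was at 8.42 in MEF, 6.79 in LN stroma, 6.20 in BLS4, 5.78 in antibody-treated BLS4, 9.22 in BLS12 and 9.29 in antibody-treated BLS12. Both BLS12 arrays were above MEF, by 0.80 log2 units without antibody, and both BLS4 arrays were below LN stroma. LN stroma lay 1.63 log2 units below MEF and 0.59 above BLS4, and its difference from BLS12 was -2.42. Taken 1 line at a time, Itga7 passed 4-fold in LN stroma against BLS12 (lower in LN stroma, as were 3.13% of genes) and in BLS4 against MEF (lower in BLS4, as were 2.19% of genes), and with the other line in each of these comparisons it did not.

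**Figure D2:**
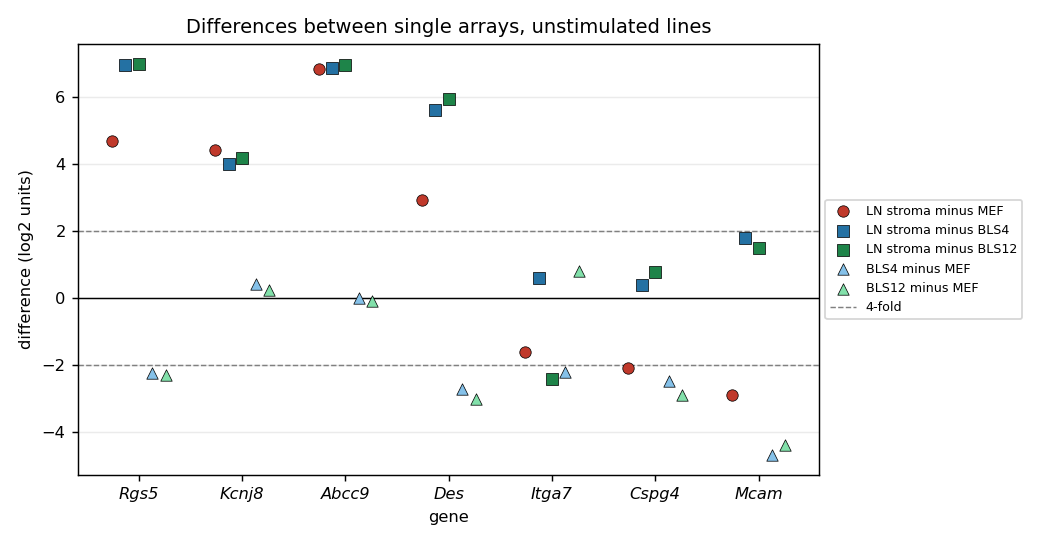
Differences between single arrays in log2 units (vertical axis) for each marker, with LN stroma minus MEF as circles, LN stroma minus each unstimulated line as squares and each unstimulated line minus MEF as triangles, and dashed lines at 4-fold. All 3 LN stroma differences lie above the upper line for Rgs5, Kcnj8, Abcc9 and Des, and Itga7 has opposite signs for BLS4 and BLS12.

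Counted by size, 7 of the 7 markers were kept for LN stroma against MEF, where at least 1 of the 2 arrays had to reach its median. Of these, 4 were at least 4-fold higher in LN stroma (Rgs5, Des, Kcnj8 and Abcc9), where 5.3% of the 10836 genes kept were, and 2 were at least 4-fold lower (Cspg4 and Mcam), where 3.31% were. Against both unstimulated lines 6 were kept, and the same 4 were at least 4-fold higher in LN stroma, beside 3.95% of 11149 genes. Against MEF, 5 were kept for the lines, and 4 were at least 4-fold lower in both lines (Rgs5, Des, Cspg4 and Mcam), beside 1.23% of 10932 genes. Rgs5, Des, Kcnj8 and Abcc9 lay below the medians of both unstimulated lines, so LN stroma alone brought them into the comparison with the lines. Rgs5, Des, Cspg4 and Mcam came into the comparison of lines with MEF through MEF alone. For LN stroma against MEF, Kcnj8 and Abcc9 came in through LN stroma alone and Cspg4 through MEF alone. A gene kept through 1 side can pass only as higher on that side, here and in the other lists. The median LN stroma minus MEF difference of the 7 markers was 2.91 log2 units, against -0.01 over all genes, and the median difference of the lines from MEF was -2.27, against 0.02. These comparisons share arrays, MEF in the first and last and LN stroma in the first and second, so their counts are not independent of each other. The markers were chosen with earlier results of these data known, so the shares beside the counts are no test of the set. With antibody-treated in place of unstimulated lines the 4 higher markers of LN stroma were again Rgs5, Des, Kcnj8 and Abcc9, beside 3.84% of 11033 genes. Against MEF 3 markers were then lower, Rgs5 missing the limit, beside 1.48% of 10895 genes.

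The lines were compared with each other, and with and without antibody, in 1 limma model of line and antibody over the 4 line arrays. Genes were kept where 2 or more of the 4 arrays reached their median, which left 10277 genes and, of the 7 markers, Itga7 alone. Itga7 was higher in BLS12 than in BLS4 by 3.26 log2 units (SE 0.172, 95% interval 2.84 to 3.68, limma adjusted p = 0.000409), by 3.02 without and 3.50 with antibody. In the same model 27.7% of genes differed between the lines and 14.5% were higher in BLS12, so a call in itself was common. The model has 1 residual degree of freedom, since each line and condition had 1 array. That residual is the difference between the lines in their antibody response, moderated across genes, and it may be technical. The p-values and intervals are gauged against it and not against a spread between replicates.

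Without the filter, over all 19938 genes, 14.5% differed between the lines and Itga7 was still the single marker that passed (limma adjusted p = 0.000315). The other 6 markers had differences between -0.28 (Cspg4, limma adjusted p = 0.263, 95% interval -0.62 to 0.06) and 0.26 (Mcam, limma adjusted p = 0.270, 95% interval -0.06 to 0.58). Rgs5 differed by 0.16, Kcnj8 by 0.10, Des by -0.01 and Abcc9 by -0.13. All 4 line arrays were below the median for Rgs5, Des, Cspg4, Mcam, Kcnj8 and Abcc9, so a difference between the lines in these 6 genes would have to show at the low end of the scale.

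The antibody comparison asked whether LTβR stimulation moved these markers in the cultured lines. Itga7 differed by -0.18 log2 units with antibody (SE 0.172, 95% interval -0.60 to 0.25, limma adjusted p = 0.730), with -0.42 in BLS4 and 0.07 in BLS12, and did not pass. In that model 0.487% of 10277 genes passed. Without the filter 0.271% of all genes passed and none of the 7 markers did, with limma adjusted p from 0.697 (Mcam) to 0.987 (Kcnj8). The estimates ran from -0.18 (Itga7) to 0.21 (Rgs5). The widest upper bound of a 95% interval was 0.62, in Des, and the lowest lower bound was -0.57, in Itga7, both short of the 1 log2 unit that makes 2-fold. Every marker but Itga7 was below the median on all line arrays. A change in them, above all a fall, would have to show at the low end of the scale. The intervals also rest on 1 residual degree of freedom, so a 2-fold change is not excluded. By size, 0.759% of the 10277 genes kept differed at least 2-fold the same way in both lines, and Itga7, the 1 marker kept, did not. Without the filter 81 of 19938 genes did, and 0 of the 7 markers. At shares this low, 0 of 7 is no result about the markers. After stimulation Rgs5, Des, Kcnj8 and Abcc9 in both lines thus remained at least 4-fold below LN stroma, at 4.75, 5.69, 6.20 and 5.29 at most.

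**Figure D3:**
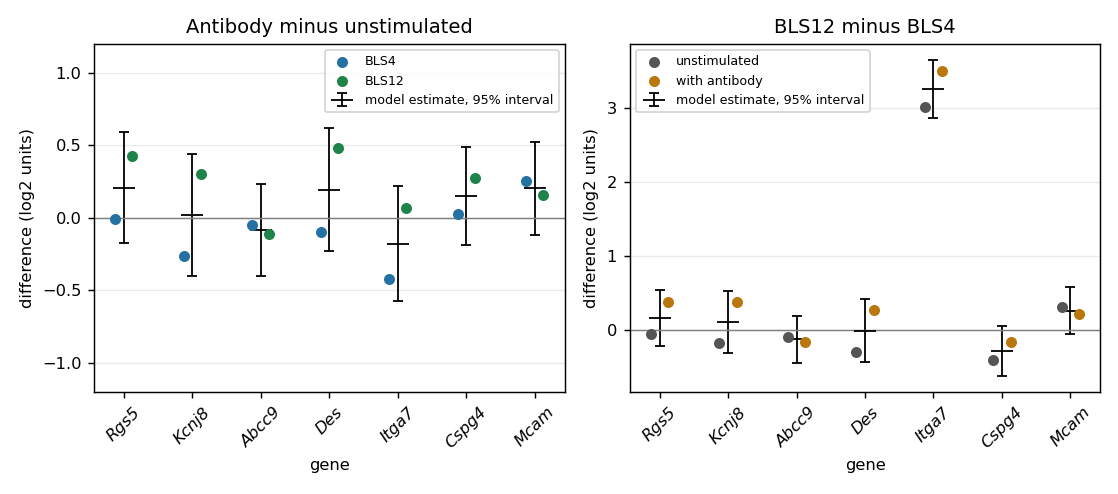
Antibody minus unstimulated (left) and BLS12 minus BLS4 (right) for each marker in log2 units, with the limma estimate over all 19938 genes and its 95% interval in black and the differences within each line or condition as points. Every antibody interval includes 0, and Itga7 is the marker whose line interval, 2.86 to 3.66, does not.

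Other genes used for mural cells, the class that joins pericytes and vascular smooth muscle, were set beside the 7 markers from a list of 33, of which 32 had a row. Of 22 kept for LN stroma against MEF, 8 were at least 4-fold higher in LN stroma, 1 lower and 13 neither. Of all genes kept, 5.3% were higher and 3.31% lower. The median over the 32 was 0.98 log2 units against -0.01 over all genes. Against both lines, 11 of 23 kept were higher, 0 lower and 12 neither, beside 3.95% of all genes kept that were higher. Steap4, a metalloreductase, had the largest of these differences from MEF, at 12.67 in LN stroma against 4.54 in MEF, and was at 5.02 in BLS4 and 5.92 in BLS12. Vtn, which encodes vitronectin, was at 11.95 in LN stroma, 4.89 in MEF, 5.63 in BLS4 and 5.75 in BLS12. Epas1, an oxygen-regulated transcription factor, was at 11.43 in LN stroma against 7.10 in MEF, and Gucy1a1, a subunit of the nitric oxide receptor, at 10.01 against 5.79. Mural cell genes below their medians in both LN stroma and MEF were not kept for that comparison. They included Higd1b, at 4.32 in LN stroma and 4.09 to 4.42 elsewhere, and Cox4i2, at 6.07 against 5.76 to 6.14. Atp13a5 was at 4.39 in LN stroma against 4.60 to 4.86 elsewhere, and Art3 at 4.70 against 3.30 to 3.45.

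Notch3, the Notch receptor that mural cells depend on, was at 9.85 in LN stroma, 7.71 in MEF, 6.44 in BLS4 and 6.09 in BLS12, the same order of steps as Rgs5 and Des. Pdgfrb, the receptor through which pericytes are recruited, was less selective. It was at 10.32 in MEF, 11.62 in LN stroma, 11.87 in BLS4 and 9.43 in BLS12. In the model of the line arrays Pdgfrb was lower in BLS12 than in BLS4, by -1.91 log2 units (limma adjusted p = 0.00605), against the direction of Itga7. Of 11 other mural cell genes tested there 2 were higher in BLS12, 4 lower and 5 did not pass, beside 27.7% of all genes kept that differed. Besides Pdgfrb, those that passed included Ebf1 (-4.11), a transcription factor, Cd248 (-2.47), the surface protein endosialin, and Pde5a (3.03), a cyclic GMP phosphodiesterase. With antibody 0 of the 11 passed, beside 0.487% of all genes kept.

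Contractile genes gave no common shift towards LN stroma. Of 13 kept for LN stroma against MEF, 1 was at least 4-fold higher, 3 lower and 9 neither. Of all genes kept, 5.3% were higher and 3.31% lower. The median over the 16 with a row was -0.97 log2 units. Synpo2, an actin-binding protein of smooth muscle and Z discs, was at 9.36 in LN stroma against 6.20 in MEF. Cnn1 (calponin), Actg2 (smooth muscle γ-actin) and Tagln (transgelin) were lower in LN stroma, by -4.05, -3.56 and -2.51. Acta2, smooth muscle α-actin, was at 11.32 in LN stroma, 13.30 in MEF, 12.14 in BLS4 and 12.13 in BLS12, within 4-fold throughout. Myh11, the smooth muscle myosin heavy chain, was at 9.54 in LN stroma, 7.62 in MEF, 5.87 in BLS4 and 5.82 in BLS12, the order seen for desmin. With antibody 1 of 10 tested passed, Cnn1 (-1.49, limma adjusted p = 0.0334), beside 0.487% of all genes kept.

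**Figure D4:**
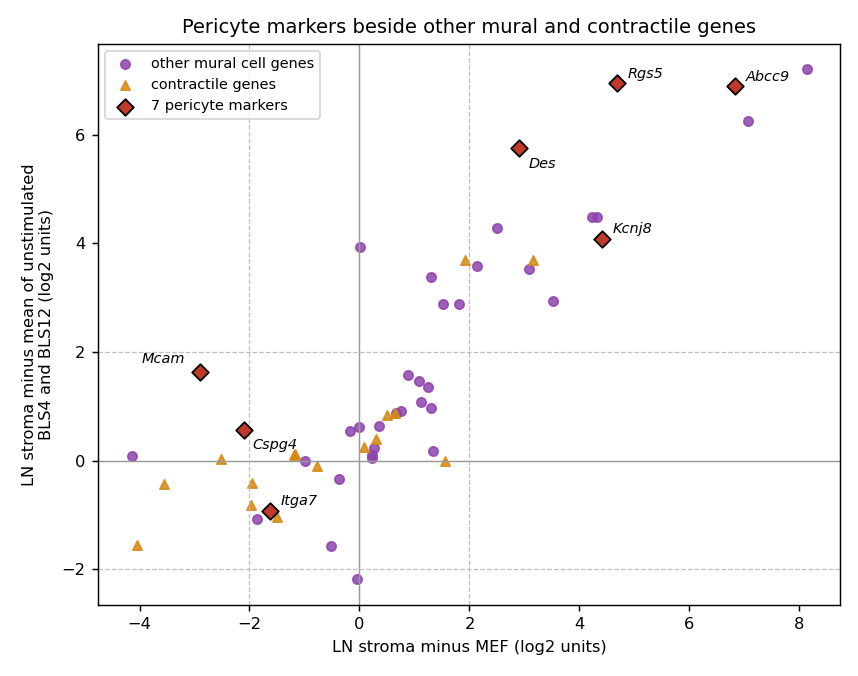
LN stroma minus MEF (horizontal axis) against LN stroma minus the mean of the unstimulated lines (vertical axis), both in log2 units, for the 7 markers (labelled diamonds), 32 other mural cell genes (circles) and 16 contractile genes (triangles), with dashed lines at 4-fold. The axes share the LN stroma array. Rgs5, Kcnj8, Abcc9 and Des lie in the upper right corner, Mcam and Cspg4 at the upper left and Itga7 below 0 on both axes.

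Partners of single markers were read from their own lists. Among the R4 family of RGS genes, to which Rgs5 belongs, 5 of 10 were kept for LN stroma against both lines. Of these, 4 were at least 4-fold higher in LN stroma, beside 3.95% of all genes kept: Rgs5 itself, Rgs16 (mean difference 3.73), Rgs4 (3.37) and Rgs2 (3.17). Rgs5, Rgs4 and Rgs2 were kept through LN stroma alone. Against MEF 2 of 5 kept were at least 4-fold higher, Rgs5 and Rgs16, beside 5.3% of all genes kept. Rgs4 (1.30) and Rgs2 (1.69) fell short. Rgs16 was at 11.29 in LN stroma against 9.11 in MEF. Of 15 intermediate filament genes and desmin partners, 10 were kept for LN stroma against MEF. Of these, 1 was at least 4-fold higher (Des itself), 2 lower (Nes and Dtna) and 7 neither, beside 5.3% of all genes kept that were higher and 3.31% lower. Synm, the synemin that copolymerises with desmin, was also highest in LN stroma, at 7.59 against 6.44 to 7.08 elsewhere. Vim, the vimentin of most mesenchymal cells, was at 13.26 in LN stroma and between 12.82 and 13.52 elsewhere, and Nes, the nestin of progenitors and some pericytes, was at 9.17 in MEF, 5.03 in LN stroma and between 4.68 and 5.12 in the lines.

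The other laminin-binding α chains resembled Itga7 in part. Itga3 was at 9.01 in MEF, 6.25 in LN stroma, 6.49 in BLS4 and 7.92 in BLS12, and in the line model it was higher in BLS12 by 1.47 log2 units (limma adjusted p = 0.00199). Itga6 was at 9.34 in MEF, 7.11 in LN stroma, 5.46 in BLS4 and 5.25 in BLS12. Itgb1, the β chain that pairs with them, was between 11.31 and 12.48 on all 6 arrays. Among the ligands, Lama2, the α chain of laminins in muscle and nerve basement membranes, was higher in BLS12 than in BLS4 by 3.6 (limma adjusted p = 0.00122), from 5.39 in BLS4 to 9.63 in BLS12 without antibody. Nid2 (nidogen 2, a basement membrane linker) was higher in BLS12 by 2.01 (limma adjusted p = 0.000689). Lama5 (-1.03, limma adjusted p = 0.0233), another laminin α chain, and Nid1 (-0.86, limma adjusted p = 0.0126), the other nidogen, were lower in BLS12. Of 15 genes of this list tested between the lines, Itga7 included, 4 were higher in BLS12, 2 lower and 9 did not pass, beside 27.7% of all genes kept that differed in either direction.

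Genes most alike to each marker were sought by Pearson's r over the 6 arrays among 1835 genes that spanned at least 2 log2 units and reached a median. With 6 arrays, 1 of which often stands apart, r describes mainly which array is high. Abcc9 was closest to Lepr (r = 0.9998), the leptin receptor of reticular stroma, then to Cyp2e1 and Cpb1. Lepr was at 11.76 in LN stroma and between 3.70 and 3.98 elsewhere. Kcnj8 was closest to Pi16, Jchain and Scara3 (r from 0.9986 to 0.9993), and Jchain, the joining chain of antibodies made by plasma cells, was at 7.92 in LN stroma against 3.20 to 3.68 elsewhere. Rgs5 was closest to Arsi, Ano1 (a calcium-activated chloride channel) and Rbm46, and Des to Tfpi2, Myh11 and Stxbp6.

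Cspg4 was closest to Slc38a4, Laptm5 and Fcer1g, and Mcam to Sox11, Mpeg1 and Meg3. Laptm5, Fcer1g and Mpeg1 are leukocyte or macrophage genes. Itga7 was closest to Bcar3 (r = 0.978), Shroom2 and Jph1. Among the markers themselves, r was 0.991 between Kcnj8 and Abcc9, 0.986 between Rgs5 and Des, and 0.969 between Cspg4 and Mcam. Itga7 reached at most 0.22 with another marker (Mcam).

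Markers of other cell types were counted beside these results, and their part in them was not tested. Of 16 leukocyte markers with a row, 7 were at or above the array median in MEF, 1 in LN stroma and 1 or 2 in each line array, and their summed intensity was 2702 in MEF, 754 in LN stroma and 667 to 1310 in the lines. Lyz2, a lysozyme of macrophages, was at 10.36 in MEF, 5.73 in LN stroma and between 7.82 and 9.63 in the lines. Of 20 endothelial markers, 7 reached the median in MEF, 7 in LN stroma and 2 or 3 in each line array, with summed intensities of 1658, 1701 and 965 to 984. Tek and Plvap were at least 4-fold higher in LN stroma than in MEF, at 8.18 and 7.68, and Cdh5 (VE-cadherin), at 5.97 in LN stroma, was between 4.64 and 5.25 elsewhere. Other endothelial genes had their highest level in MEF, as Mcam did: Kdr was at 7.93 there and between 5.21 and 5.96 elsewhere, Emcn at 6.96 against 3.63 to 5.88, Flt1 at 8.12 against 5.67 to 6.70, and Flt4 at 7.34 against 5.16 to 5.86. Of 18 skeletal muscle markers, 4 or 5 reached the median on every array. Myod1 and Myog stayed below it on all 6, and Acta1 was at 10.07 in MEF and 6.83 in LN stroma. Pax3, a muscle and neural crest factor, was higher in BLS12 than in BLS4 by 2.05 (limma adjusted p = 0.000689). Of 9 Schwann and glial markers with a row, 4 reached the median in MEF and 1 or 2 on the other arrays. Gap43, a growth cone protein, was at 9.16 in MEF and between 5.74 and 5.89 elsewhere, and Erbb3 at 7.22 against 5.39 to 6.14. Cdh19 was at 6.18 in MEF against 3.01 to 3.26, below the median on all 6 arrays. MEF was the highest array for these genes, as for Cspg4 and Mcam, but not for the whole list. Ngfr was highest in LN stroma, at 8.77 against 7.92 in MEF. S100b was too, at 5.64 against 4.85, below the median on all 6 arrays. Mbp was highest in unstimulated BLS12, at 6.67 against 6.19 in MEF. Sox10 was below the median on all 6. Of 12 fibroblastic reticular markers with a row, 12 reached the median in LN stroma and 8 in MEF, with Ccl19 and Cxcl13 at 12.49 and 12.82 in LN stroma.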

How the data were processed

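RNA of 6 samples was measured on Affymetrix whole-transcript arrays. The authors deposited 1 linear intensity per transcript cluster, made with Affymetrix Expression Console 1.1 per the submitters' processing notes. How probes were summarised and arrays normalized, and on which genome build, is not given in the sources used here. Of 35557 entries, 21789 belonged to 1 gene by the platform annotation (21698 matched by Entrez ID), 1621 to several and 12147 to none; only the first kind was used. Intensities started at 3.55, and log2 needed no pseudocount. For the 999 genes with several entries the brightest was used; the 7 markers had 1 entry each. No 2 arrays were identical. Arrays carry no counts, and their number limits the precision.

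Line and antibody differences came from limma 3.58.1 (lmFit, eBayes, two-sided) in R 4.3.3, with line and antibody as additive terms for 4 arrays, Benjamini-Hochberg adjustment over all genes kept and a threshold of 0.05. Cell line pairs the arrays because the same 2 lines appear with and without antibody (r = 0.864 between the deviations of same-line arrays from their group means, the same for both lines by construction). The code of the model was run on simulated data with known antibody differences. Comparisons with MEF or LN stroma are single-array differences, counted at 4-fold where at least 1 array compared reached its median over rows with 1 gene. The markers and gene lists were chosen with earlier results of these data known. All markers were named. From each list up to 4 genes per comparison were named by size among those past the threshold or 4-fold, with fixed partner and gate genes, and genes most alike to a marker by rank of r. Vim, Synm, Itgb1, Nid1, Cdh5, Flt1, Flt4, Erbb3, Cdh19, Myod1, Myog and Sox10 were named after their values were seen. The same holds for Mbp, S100b, Higd1b, Cox4i2, Atp13a5 and Art3.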

Additional observations from a re-analysis of the deposited data

Results flagged for a closer look

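In 4 markers the antibody minus unstimulated difference had opposite signs in the lines. The difference in BLS12 less that in BLS4 was 0.58 log2 units in Des (-0.09 in BLS4, 0.49 in BLS12), 0.56 in Kcnj8 (-0.26 and 0.30), 0.49 in Itga7 (-0.42 and 0.07) and 0.44 in Rgs5 (-0.01 and 0.43). Each line had 1 array per condition, so none of these differences between the lines was tested. In the model of line and antibody they form the residual. Except for Itga7 in BLS12 all these levels lay below their array's median.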

How the results depend on the processing

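In the line and antibody model Itga7 kept its side of the threshold under the 7 alternatives run for each difference, with a line difference of 3.22 to 3.26 log2 units, adjusted p from 0.000315 to 0.00458, and an adjusted p for the antibody of 0.693 to 1.00. Cspg4, Mcam and Kcnj8, reported without the filter, were refitted under 1 alternative, the median over all entries, and did not pass there either. Rgs5, Des and Abcc9 were fitted without the filter alone, so no alternative bears on them. Itga7 was left out where all 4 arrays had to reach the median. Counts over all genes depended more on the setting. With antibody 50 genes passed (34 higher, 16 lower), 6 after quantile normalization (5 higher, 1 lower), 98 where all 4 arrays had to reach the median, and 33 with the median taken over all entries, an alternative added after seeing the data. With no replicate block limma called 0 genes, against 198 at an unadjusted p under 0.05. Between the lines 2849 genes passed, and 1443 with the antibody left out of the model. Leaving out 1 line in turn gave 742 to 967 genes for LN stroma against lines (513 with both), 374 to 443 for lines against MEF (174) and 141 to 320 for the antibody by size (78), because 1 line has to pass in place of both; without BLS4 Itga7 was the 1 marker lower in LN stroma than in the line, and without BLS12 it was lower in the line than in MEF beside Rgs5, Des, Cspg4 and Mcam. The antibody and line tests were not run without 1 line, since no residual degree of freedom is left. Centring moved the median difference of LN stroma from BLS4 over all genes from -0.04 to -0.15 log2 units, and the markers past 4-fold were the same under both scalings. Single arrays of MEF and LN stroma and levels below the median limit the sizes given.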
